A study of Mus musculus with 24 samples.

Results

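The colony-stimulating factors and their receptors were followed in cultured mouse pulmonary fibroblasts. The family was taken by gene name as 9 genes of the 55291 gene names counted: 4 ligands (Csf1, Il34, Csf2 and Csf3) and 5 receptor chains (Csf1r, Csf2ra, Csf2rb, Csf2rb2 and Csf3r). All 9 passed the filter on low counts, which left 16258 genes to test, but Csf2 passed only through the WT libraries that received rmCIRP. RNA was sequenced from lung fibroblasts of WT C57BL/6 mice and of TLR4-/- mice on the same background, and the cells had received PBS, recombinant mouse CIRP (rmCIRP, at 1 μg/ml), recombinant mouse TGF-β1 (rmTGF-β1, at 2 ng/ml) or both proteins for 24 h. CIRP, cold-inducible RNA-binding protein, acts outside the cell as a danger signal that binds TLR4, and TGF-β1 is the main profibrotic cytokine of the lung. Each of the 8 combinations of genotype and treatment had 3 libraries. The mice were 4 to 8 weeks old, each group of fibroblasts came from a pool of 3 to 4 lungs, and the cells were treated at passages 3 to 6 after a night in reduced serum medium. The sources used here do not say whether the 3 libraries of a condition came from separate pools or cultures, so the p-values measure the spread between libraries, which may be technical.

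Colony-stimulating factors are secreted proteins that keep myeloid cells alive and drive their growth and maturation. M-CSF (Csf1) and IL-34 (Il34) bind the tyrosine kinase receptor Csf1r of macrophages, GM-CSF (Csf2) binds a receptor made of the alpha chain Csf2ra and the beta chain Csf2rb, and G-CSF (Csf3) binds Csf3r of neutrophils and their precursors. Stromal cells such as fibroblasts are known sources of the ligands, while the receptors are carried mainly by myeloid cells. Mice have, next to Csf2rb, the related gene Csf2rb2, whose product is a beta chain for IL-3.

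Between 29853346 and 39664606 reads were counted on genes per library. Levels are given as normalised read counts, which are the read counts divided by a size factor for each library, and fold changes come from a model across all genes, with a call made at an adjusted p under 0.1. Tlr4 was not lower in the libraries labelled TLR4-/-: it stood at 718, 802 and 758 normalised counts in the WT PBS libraries and at 927, 892 and 891 in those labelled TLR4-/-. Xist, the noncoding RNA that marks the inactive X chromosome, was at or below 3.00 normalised counts in all 12 WT libraries and at or above 4328 in all 12 others, so sex and genotype label cannot be told apart. The cultures also held RNA of macrophages: the 16 macrophage markers listed for this purpose, Lyz2, Adgre1, Cd68 and C1qa among them, summed to 81393 to 102732 normalised counts per WT library and 347174 to 450838 per library labelled TLR4-/-, and none was at 0. Of 9 neutrophil markers, S100a9 and Ngp were at 0 in the PBS libraries of both genotypes and S100a8 made up most of the rest. Library 3 labelled TLR4-/- with both proteins stood apart, with a mean absolute deviation from its group of 0.192 on the log2 scale against 0.0707 to 0.124 in the other 23 libraries.

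Sequence features of the family bear on how its reads can be counted. Csf2rb and Csf2rb2 are close copies that lie next to each other on chromosome 15, and their coding sequences were identical at 95.2% of 2631 aligned positions, with a longest identical run of 242 bases (GENCODE M21 transcripts, GRCm38). Of all stretches of 50 bases in the Csf2rb coding sequence, 26.0% also occurred in Csf2rb2, and 15.8% of the stretches of 75 bases did. A read from such a stretch cannot be assigned to either gene by sequence alone, so the split of reads between these genes is uncertain. A window of 120 bases with an identity near that of the whole is shown because it lets the difference between the copies be seen. It covers coding bases 19 to 138 of both transcripts, which span chr15:78335225-78336397 on the plus strand for Csf2rb (exons 3 and 4) and chr15:78297053-78298211 on the minus strand for Csf2rb2 (exons 2 and 3), an intron included in each, and capitals mark the 6 bases that differ.
Csf2rb: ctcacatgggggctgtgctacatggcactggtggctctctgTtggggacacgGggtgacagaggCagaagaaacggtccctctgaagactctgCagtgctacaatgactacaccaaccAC
Csf2rb2: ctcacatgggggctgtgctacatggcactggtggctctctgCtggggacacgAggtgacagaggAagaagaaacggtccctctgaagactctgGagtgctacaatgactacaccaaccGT

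A second kind of feature is the pentamer ATTTA of AU-rich elements, which are known as sites where cytokine mRNAs are marked for decay. It was searched on the RNA strand only, with overlaps allowed, in the 3′ untranslated regions of 20624 genes, of which 61.7% held it. Csf2 had 9 copies in 317 bases, a density reached by 0.0921% of genes, and Csf3 had 6 in 669 bases, a density reached by 1.81% of genes. Csf1 had 4 in 2111 bases and Il34 had 1 in 439 bases, densities reached by 36.5% and 30.7% of genes. Among the receptor chains, Csf1r had 3 copies in 1669 bases, a density near that of Csf1 and reached by 38.1% of genes. Csf2ra, Csf2rb, Csf2rb2 and Csf3r had 0. The densest stretches of 30 bases are shown for the 2 ligands that rose most with rmCIRP in WT cells, with the pentamers in capitals, from chr11:54247329-54247358 on the minus strand for Csf2 (exon 4) and chr11:98702984-98703013 on the plus strand for Csf3 (exon 5). A match of letters is a description of the reference, and mRNA stability was not measured.
Csf2: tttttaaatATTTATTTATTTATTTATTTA
Csf3: gatagtttATTTAtctctATTTAatATTTA

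The first comparison asked what rmCIRP did to the family in WT fibroblasts. Of the 9 genes, 6 rose (Csf2, Csf3, Il34, Csf3r, Csf2rb and Csf2rb2) and 1 fell (Csf1r) by the quasi-likelihood F-test of edgeR after Benjamini-Hochberg adjustment, where 43.9% of all genes tested were called, 19.8% higher and 24.1% lower. The median log2 fold change was 0.51 over the 9 genes and -0.02 over all genes tested. The PBS and rmCIRP libraries did not overlap for any of the 9 genes, against 50.8% of all genes tested. Csf2, having passed the filter through its treated libraries, had to differ, so its part in these counts and in the median carries no evidence.

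Csf2, which encodes GM-CSF, was close to absent without rmCIRP and had the largest fold change in the family. The WT PBS libraries held 4, 4 and 2 reads of Csf2, or 3.85, 3.99 and 2.08 normalised counts. With rmCIRP they held 149.6, 149 and 168 normalised counts. All 3 treated libraries stood far above all 3 controls, with means of 156 ± 10.7 and 3.31 ± 1.06 (SD, n = 3). The log2 fold change was 5.49 ± 0.28 (SE). No p-value is given for it, since Csf2 passed the filter on low counts only through WT libraries with rmCIRP. From the summed reads, 456 against 10, the ratio was 46.8 with a 95% interval of 25.2 to 98.2, which covers counting error only.

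Csf3, which encodes G-CSF, was present in controls and rose strongly. It was at 75.1, 88.9 and 73.9 normalised counts with PBS and at 1082, 1042 and 1164 with rmCIRP in WT libraries. The groups did not overlap, and the means were 79.3 ± 8.32 and 1096 ± 61.9 (SD, n = 3). The log2 fold change was 3.78 ± 0.12 (SE, edgeR adjusted p = 8.35e-17), a fold of 13.8.

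Csf1, by far the most abundant ligand, moved little. Its 3 WT PBS libraries were at 106512, 103351 and 100258 normalised counts and its rmCIRP libraries at 112526, 112598 and 107666. The treated libraries were all higher, but the log2 fold change of 0.10 ± 0.07 (SE) was not past the threshold (edgeR adjusted p = 0.262), with an approximate 95% interval of -0.04 to 0.23. When the 6 libraries of this comparison were fitted alone, the same small difference, 0.12, was called (edgeR adjusted p = 0.0303).

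Il34, the other ligand of Csf1r, was a low gene that rose modestly. It went from 40.4, 39.9 and 32.3 normalised counts with PBS to 46.7, 56.6 and 58.3 with rmCIRP in WT libraries. The groups did not overlap, though the gap between the highest control and the lowest treated library was small. The log2 fold change was 0.51 ± 0.19 (SE, edgeR adjusted p = 0.0362). The call was lost without WT PBS library 3 (0.42, adjusted p = 0.142) or without WT rmCIRP library 3 (0.47, adjusted p = 0.115).

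**Figure D1:**
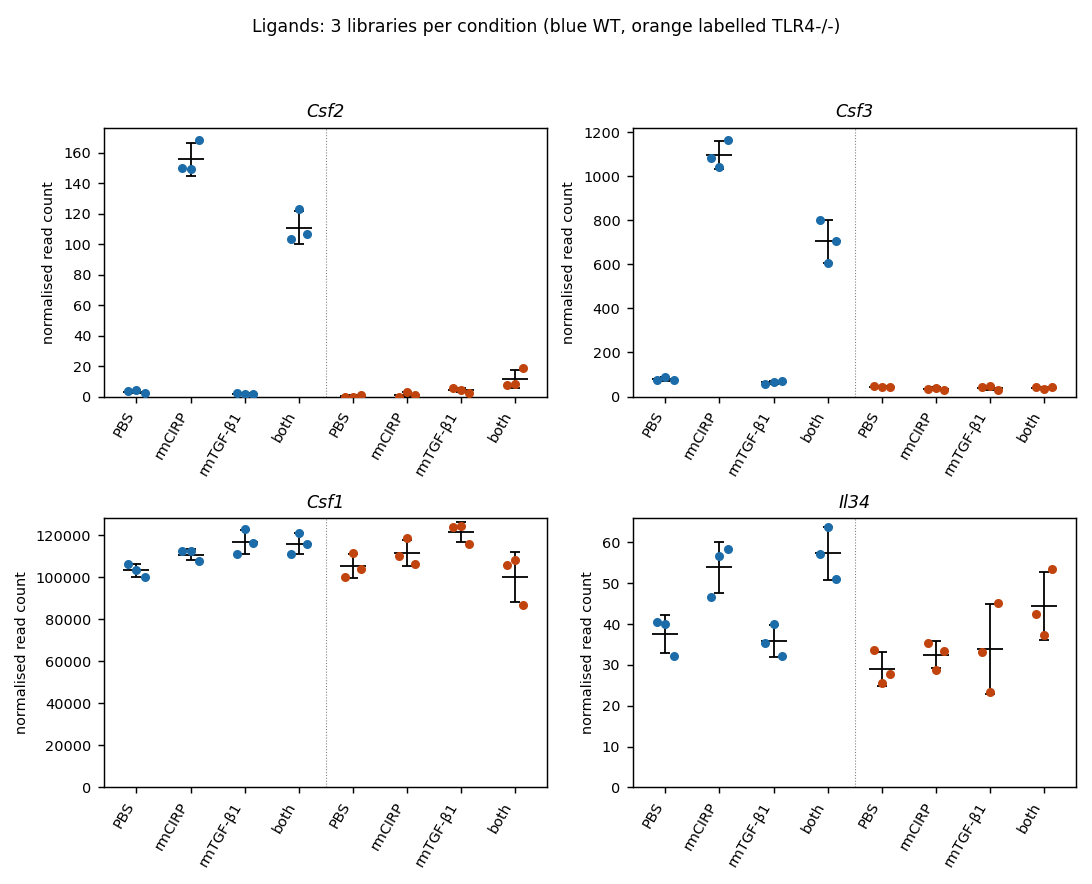
Normalised read counts of the 4 ligands in each of 24 libraries (points, 3 per condition), with the mean (horizontal bar) and the SD (whiskers), on linear axes that start at 0 and differ between panels. Csf2 and Csf3 were high only in the WT libraries that received rmCIRP, alone (means 156 and 1096) or with rmTGF-β1 (means 111 and 705), while Csf1 stayed between 86766 and 124357 in all 24 libraries.

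Of the receptor chains, Csf1r, the receptor of M-CSF and IL-34, was the member that fell with rmCIRP. It was at 2779, 3175 and 3152 normalised counts in WT PBS libraries and at 2286, 1944 and 2139 in WT rmCIRP libraries. All treated libraries were below all controls. The log2 fold change was -0.52 ± 0.07 (SE, edgeR adjusted p = 2.39e-06), a fold of 0.697.

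Csf3r, the G-CSF receptor, rose from a low level together with its ligand. Its WT PBS libraries were at 23.1, 21.96 and 29.1 normalised counts and its rmCIRP libraries at 129, 142 and 125. The groups were far apart, with a log2 fold change of 2.41 ± 0.20 (SE, edgeR adjusted p = 1.58e-09), a fold of 5.32.

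The chains of the GM-CSF receptor differed among themselves. Csf2rb, the beta chain that GM-CSF, IL-3 and IL-5 receptors share, went from 551, 607 and 591 to 977, 1022 and 1117 normalised counts. The treated libraries were all higher, with a log2 fold change of 0.83 ± 0.15 (SE, edgeR adjusted p = 0.000154). Its copy Csf2rb2 went from 414, 436 and 423 to 482, 543 and 547 normalised counts, a smaller difference without overlap. The log2 fold change of Csf2rb2 was 0.30 ± 0.12 (SE, edgeR adjusted p = 0.0463), and the call was lost without WT rmCIRP library 2 (0.28, adjusted p = 0.108) or 3 (0.28, adjusted p = 0.117). The sum of the pair, which does not depend on how the counted reads were split between the copies, went from 1007 ± 39.9 to 1563 ± 103 normalised counts (SD, n = 3). Reads that fit both copies may be missing from this sum, since the counting options are not known. Csf2ra, the alpha chain that binds GM-CSF alone, was at 760.3, 848 and 893 with PBS and at 906, 896 and 942 with rmCIRP. Its log2 fold change of 0.13 ± 0.09 (SE) was not past the threshold (edgeR adjusted p = 0.286), with an approximate 95% interval of -0.06 to 0.32. When only the libraries compared were fitted, the Csf2ra difference, 0.15, was called (edgeR adjusted p = 0.0582).

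The macrophage markers moved in the same WT libraries. Of the 16, 4 rose and 10 fell with rmCIRP, with a median log2 fold change of -0.32, and their sum went from a range of 94580 to 102732 normalised counts to one of 83283 to 88873. Without Lyz2, the most abundant marker, the sum instead went from a range of 20574 to 22630.2 to one of 22851 to 24968. Both sums mix markers that moved in opposite directions with rmCIRP. The 4 that rose were Fcgr1 (2.26 on the log2 scale), Cd14 (1.70), Adgre1 (0.98) and Ptprc (0.56). Among the 10 that fell, Mrc1 fell most (-0.71). Of 9 fibroblast markers, 2 rose and 6 fell. The 9 neutrophil markers summed to 139.6 to 167 normalised counts with PBS and 309 to 363 with rmCIRP, with S100a9, Retnlg and Ngp at 0 in both groups. Of 6 dendritic cell markers 3 were tested, of which 2 rose, with a median log2 fold change of 0.51, and the 6 summed to 402 to 422 normalised counts with PBS and 524 to 597 with rmCIRP, with Cd209a at 0 in both groups. Csf1r per 1000 marker counts was 29.4 to 30.9 with PBS and 23.4 to 26.1 with rmCIRP, Csf2rb was 5.76 to 5.91 and 11.2 to 12.6, and Csf3r was 0.214 to 0.284 and 1.41 to 1.71. For these 3 receptors the PBS and rmCIRP libraries were thus apart on both scales, and they were also apart per 1000 counts of the markers without Lyz2. Csf2ra (8.04 to 8.71 and 10.3 to 10.8) and Csf2rb2 (4.12 to 4.38 and 5.50 to 6.52) were apart per 1000 marker counts. Without Lyz2 both overlapped, Csf2ra at 37.0 to 40.3 and 37.0 to 39.2 and Csf2rb2 at 19.1 to 20.1 and 19.7 to 23.8. In bulk RNA, fewer cells of a type and less RNA per cell cannot be told apart, and the part of the macrophage, neutrophil and dendritic cell markers in the receptor results was not tested.

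**Figure D2:**
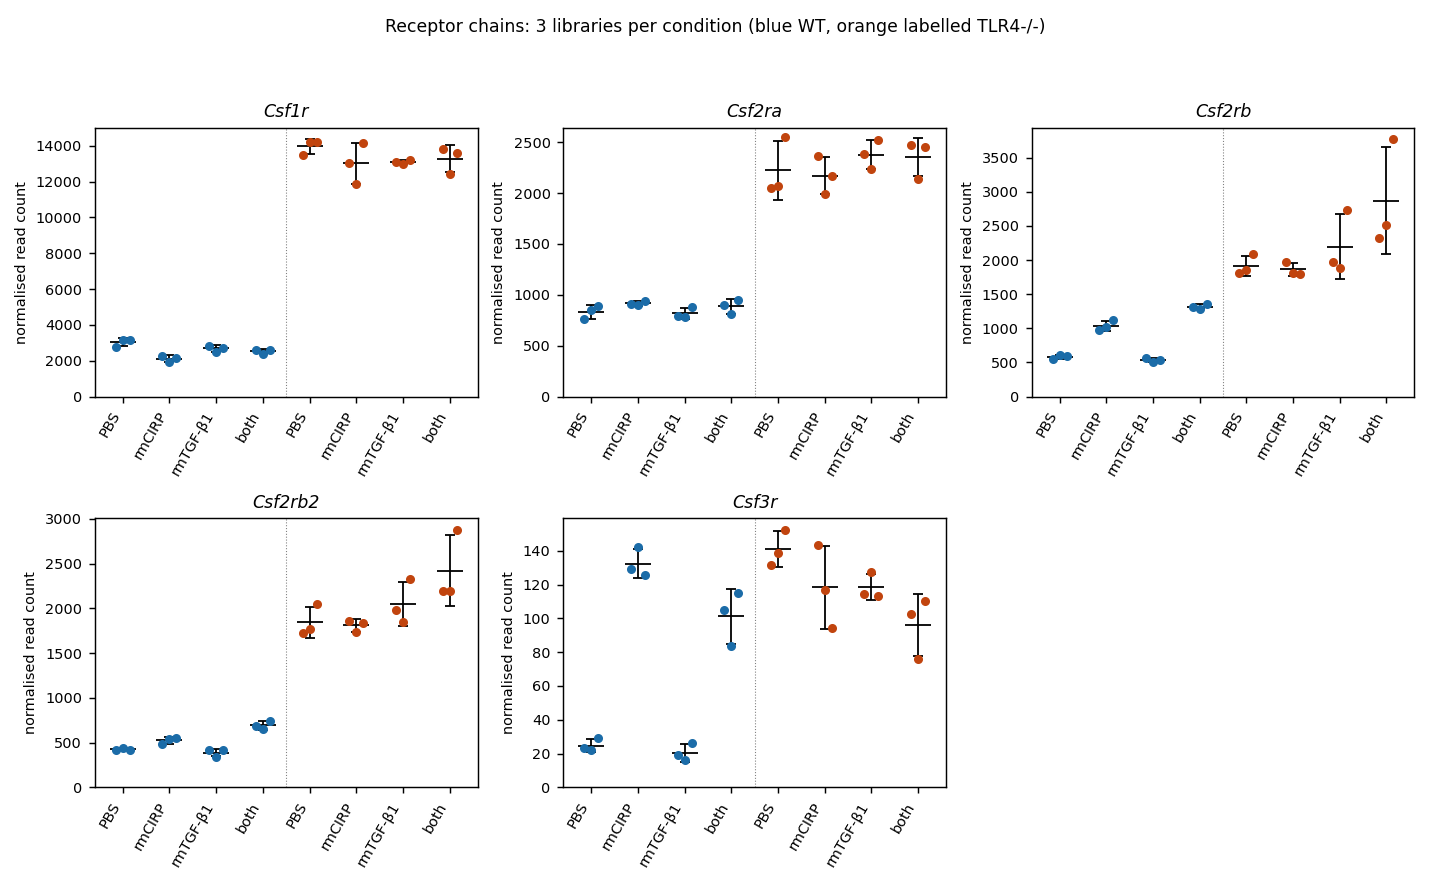
Normalised read counts of the 5 receptor chains in each of 24 libraries (points, 3 per condition), with the mean (horizontal bar) and the SD (whiskers), on linear axes that start at 0 and differ between panels. Csf1r lay between 1944 and 3175 in WT libraries and between 11891 and 14237 in those labelled TLR4-/-, and Csf3r of WT libraries with rmCIRP reached the levels of the libraries labelled TLR4-/-.

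The next comparison asked what rmTGF-β1 alone did in WT fibroblasts. None of the 9 genes passed the threshold by edgeR's test, where 12.4% of all genes tested were called, 5.77% higher and 6.65% lower. DESeq2 called 2 of the 9, Csf1 higher (adjusted p = 0.0711) and Csf1r lower (adjusted p = 0.0958), and the unadjusted edgeR p was under 0.05 for the same 2 genes. The libraries did not overlap for 4 of the 9 genes (Csf1, Csf2, Csf3 and Csf2rb2), against 29.7% of all genes tested. Csf2 is among them through the size factors alone, since WT PBS library 3 held 2 reads, as did each library with rmTGF-β1. For Csf2rb2 the gap was very small, with the lowest PBS library at 413.84 normalised counts and the highest rmTGF-β1 library at 413.55. Csf1 was at 111183, 122945 and 116357 normalised counts with rmTGF-β1, all above the PBS libraries, with a log2 fold change of 0.17 ± 0.07 (SE, edgeR adjusted p = 0.111). Csf1r was at 2848, 2495 and 2716 normalised counts, which overlapped PBS, with a log2 fold change of -0.18 ± 0.07 (SE, edgeR adjusted p = 0.105). Csf3 was at 58.5, 67.0 and 71.8 normalised counts, and Csf2 at 2 reads in each library. Neither difference from PBS passed the test, with log2 fold changes of -0.27 ± 0.16 and -0.78 ± 0.68 (SE).

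When rmCIRP was added to rmTGF-β1 in WT cells, 3 of the 4 ligands (Csf2, Csf3 and Il34) and 3 of the 5 receptor chains (Csf3r, Csf2rb and Csf2rb2) rose. Against rmTGF-β1 alone, 6 of the 9 genes were higher and 0 lower by edgeR's test, where 42.2% of all genes tested were called, 20.5% higher and 21.7% lower, and the libraries of 6 genes did not overlap, against 50% of all genes tested. Csf2 again had to differ, since it passed the filter through its libraries with rmCIRP, and adds nothing to these counts. It was at 103, 123 and 106 normalised counts with both proteins, against 2.02, 2.00 and 1.69 with rmTGF-β1. As the reference libraries held 2 reads each, the ratio of summed reads was 58.4 with a 95% counting interval of 26.5 to 160. Csf3 was at 802, 608 and 704 normalised counts with both, a log2 fold change of 3.41 ± 0.12 (SE, edgeR adjusted p = 1.26e-15). Il34, at 57.1, 63.8 and 51.0 normalised counts with both, rose by 0.68 ± 0.19 on the log2 scale (SE, edgeR adjusted p = 0.0075). Both ligands lay above all 3 rmTGF-β1 libraries.

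Among the receptor chains in the same comparison, Csf3r rose by 2.28 ± 0.21, Csf2rb by 1.31 ± 0.15 and Csf2rb2 by 0.83 ± 0.11 on the log2 scale (SE, edgeR adjusted p = 1.46e-08, 4.84e-07 and 6.15e-06). Csf2rb was at 1310.2, 1282 and 1359.7 normalised counts with both, the highest WT levels of this chain. Csf2rb2 was at 683, 649.9 and 746 normalised counts and Csf3r at 105, 83.6 and 115. Csf1r was at 2614, 2392 and 2622 normalised counts, which overlapped rmTGF-β1 alone, and its log2 fold change of -0.08 ± 0.07 (SE) was not past the threshold (edgeR adjusted p = 0.364).

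**Figure D3:**
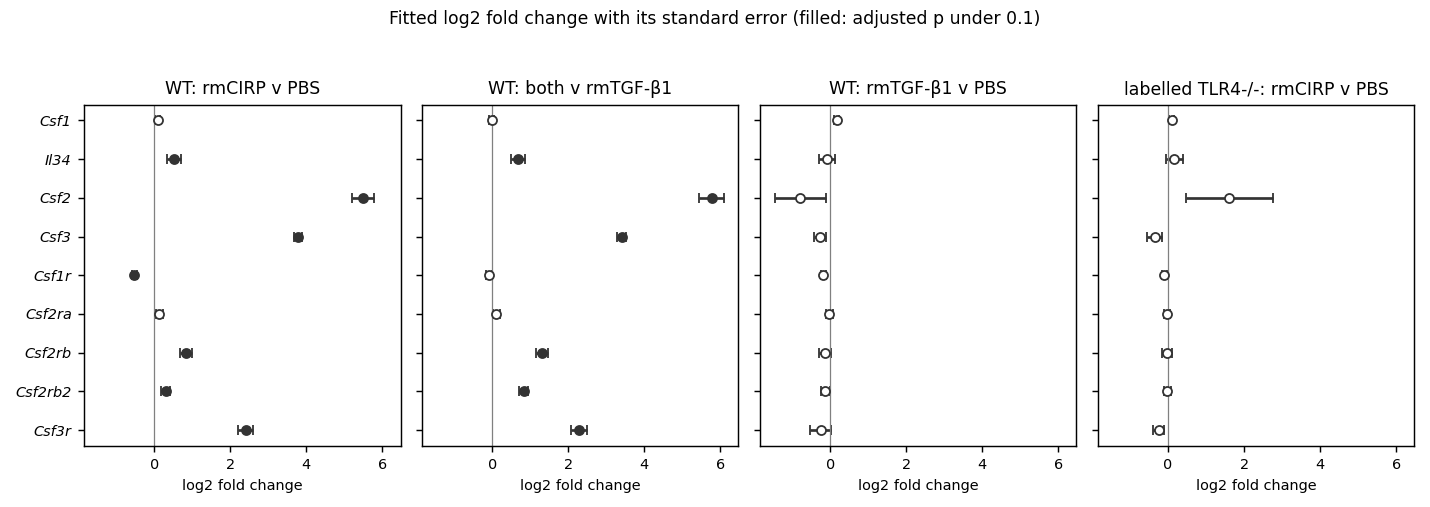
Fitted log2 fold changes of the 9 genes (points) with their standard errors (bars) in 4 comparisons, where filled points passed the threshold. In WT libraries Csf3 stood at 3.78 and 3.41 and Csf2 at 5.49 and 5.78 when rmCIRP was given without and with rmTGF-β1. The filled points of Csf2 carry no evidence, since Csf2 passed the filter on low counts only through these WT libraries with rmCIRP. No point was filled for rmTGF-β1 alone in WT libraries or for rmCIRP in the libraries labelled TLR4-/-.

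Adding rmTGF-β1 to rmCIRP went with lower Csf3 in WT cells, and with lower Csf2 in a call that was lost under several alternatives. Of the 9 genes, 2 were lower with both proteins than with rmCIRP alone (Csf2 and Csf3) and 2 higher (Csf1r and Csf2rb2), where 20.5% of all genes tested were called, 10.5% lower and 10% higher, and the libraries of 6 genes did not overlap, against 36.4%. Csf3 fell by 0.64 ± 0.09 on the log2 scale (SE, edgeR adjusted p = 3.25e-05), from 1042 to 1164 normalised counts down to 608 to 802. Csf2 fell by 0.50 ± 0.16 (SE, edgeR adjusted p = 0.0368), with 149 to 168 normalised counts against 103 to 123. The Csf2 call was lost with DESeq2 (adjusted p = 0.105) and without WT rmCIRP library 3 (-0.43, adjusted p = 0.153), WT library 1 with both (-0.44, adjusted p = 0.141) or library 3 with both (-0.47, adjusted p = 0.113). Csf1r was higher by 0.26 ± 0.07 (SE, edgeR adjusted p = 0.0117) and Csf2rb2 by 0.40 ± 0.11 (SE, edgeR adjusted p = 0.0168). Csf2rb was higher in all libraries but not past the threshold (0.34 ± 0.14, SE, edgeR adjusted p = 0.121). The difference of Csf2rb was called with DESeq2 (adjusted p = 0.0766), with the replicate block (0.0524), with no count filter (1.67e-07) and when only the libraries compared were fitted (0.000165). Csf3r was lower in all libraries, at 83.6 to 115 normalised counts against 125 to 142, and was not called. It was called by edgeR with no count filter (-0.38, adjusted p = 0.0893) and when only the libraries compared were fitted (-0.38, adjusted p = 0.046). The same held without WT library 3 with both (-0.49, adjusted p = 0.0812).

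Whether the proteins acted together other than additively on the log2 scale was tested as an interaction in WT libraries. None of the 9 genes passed by edgeR's test, where 0.0492% of all genes tested were called, 0.0369% higher and 0.0123% lower. DESeq2 called 1 of the 9, Csf1r, and 37 of the 12350 genes to which it gave an adjusted p. The unadjusted edgeR p was under 0.05 for Csf1r, Csf2rb and Csf2rb2, against 5.64% of all genes tested. When only the libraries compared were fitted, edgeR called Csf1r (0.43, adjusted p = 0.0323), Csf2rb (0.47, adjusted p = 0.0145) and Csf2rb2 (0.51, adjusted p = 0.0391). With no count filter the same genes were called (edgeR adjusted p = 9.79e-07, 7.34e-05 and 9.11e-05). Leaving out 1 library at a time called none of the 9. Csf1r had an interaction of 0.44 ± 0.10 (SE, edgeR adjusted p = 0.17, DESeq2 adjusted p = 0.0149), with a called fall with rmCIRP alone and no called difference with rmCIRP on top of rmTGF-β1. Csf2 and Csf3 had interactions of 0.29 ± 0.65 and -0.37 ± 0.18 (SE), neither past the threshold.

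The libraries labelled TLR4-/- were used to ask whether the response to rmCIRP depended on genotype. With rmCIRP against PBS, 0 of the 9 genes were called by edgeR's test, where 0% of all genes tested were called. Over all genes, 1136 had an unadjusted p under 0.05 and DESeq2 called 33, but none of the 9 genes had an unadjusted p under 0.05 and DESeq2 called 0 of them. Csf3 was at 49.4, 41.3 and 44.8 normalised counts with PBS and at 36.4, 40.8 and 28.5 with rmCIRP. It was the only gene of the 9 whose libraries did not overlap, against 13.7% of all genes tested, and it lay lower with rmCIRP (-0.35 ± 0.20, SE, edgeR adjusted p = 0.783). Csf2 had 0, 0 and 1 reads with PBS and 0, 3 and 1 with rmCIRP. The ratio of these sums was 3.81 with a 95% counting interval of 0.377 to 187, so no difference was detectable at this depth. Csf3r was at 131, 139 and 152 normalised counts with PBS and at 144, 117 and 94.4 with rmCIRP, and Csf2rb at 1803, 1859 and 2084 and at 1975, 1816 and 1798. Both overlapped, with log2 fold changes of -0.25 ± 0.15 and -0.03 ± 0.13 (SE).

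The difference between genotype labels in the rmCIRP response was tested itself. It passed for 4 of the 9 genes, where 31.4% of all genes tested were called, 17.1% higher and 14.3% lower. The response in labelled TLR4-/- libraries was lower than in WT by 4.13 ± 0.24 on the log2 scale for Csf3, written as a difference of -4.13 (SE, edgeR adjusted p = 2.9e-11). The difference was -2.66 ± 0.25 for Csf3r (SE, edgeR adjusted p = 4.22e-08) and -0.86 ± 0.20 for Csf2rb (SE, edgeR adjusted p = 0.00316). For Csf1r it was 0.42 ± 0.09 (SE, edgeR adjusted p = 0.00186), as Csf1r fell with rmCIRP in WT libraries and had a log2 fold change of -0.10 ± 0.06 (SE) in the others. Csf2rb2 had a difference of -0.32 ± 0.15 (SE, edgeR adjusted p = 0.125), not past the threshold, but it was called with DESeq2 (adjusted p = 0.0948), with the replicate block (0.0381), with no count filter (0.00206), when only the libraries compared were fitted (0.0136) and without labelled TLR4-/- PBS library 1 (0.096). The labelled TLR4-/- PBS libraries held 1 read of Csf2 in all, and its difference was -3.88 ± 2.18 (SE). It was not called by edgeR and was called by DESeq2. Neither outcome carries evidence and no p-value is given, since Csf2 passed the filter only through WT libraries with rmCIRP. With rmCIRP, the WT libraries held 456 reads of Csf2 and the labelled TLR4-/- libraries 4, a ratio of 121 with a 95% counting interval of 47.0 to 447 after scaling for depth. For the same reason this ratio is a description only.

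In the labelled TLR4-/- libraries, rmTGF-β1 raised 2 of the 9 genes over PBS by edgeR's test, where 23.9% of all genes tested were called, 12.1% higher and 11.7% lower, and the libraries of 4 genes did not overlap, against 33.8%. Csf1 was at 100365, 111723 and 103941 normalised counts with PBS and at 124007, 124357 and 115995 with rmTGF-β1. All treated libraries were higher, with a log2 fold change of 0.21 ± 0.07 (SE, edgeR adjusted p = 0.0274), and the call was lost without PBS library 1 (0.18, adjusted p = 0.122). Csf2 had 6, 4 and 3 reads against 0, 0 and 1. Its call (edgeR adjusted p = 0.0169) rests on 13 reads against 1, a ratio of 12.3 with a 95% counting interval of 1.85 to 523. The genotype difference in the rmTGF-β1 response was called for 0 of the 9 genes by edgeR, where 0.0861% of all genes tested were called, 0.0369% higher and 0.0492% lower, and by DESeq2 also for 0. The unadjusted edgeR p of that difference was under 0.05 for Csf2 alone (4.00 ± 1.16, SE, edgeR adjusted p = 0.195).

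With both proteins against rmTGF-β1, 1 of the 9 genes was called in the labelled TLR4-/- libraries, where 2.69% of all genes tested were called, 1.56% higher and 1.13% lower. Csf1 fell by 0.28 ± 0.07 on the log2 scale (SE, edgeR adjusted p = 0.0703), with 106016, 108173 and 86766 normalised counts with both. Library 3 was the lowest of the 3 and is the library that stands apart, and without it the difference was -0.19 (edgeR adjusted p = 0.276). The Csf1 call was also lost without rmTGF-β1 library 1 (adjusted p = 0.369) or 2 (adjusted p = 0.168). Csf2 had 8, 9 and 18 reads with both, the highest counts of this gene under the TLR4-/- label. The ratio to rmTGF-β1 was 2.71 with a 95% counting interval of 1.40 to 5.58, and the gene was not past the threshold (log2 fold change 1.41 ± 0.43, SE, edgeR adjusted p = 0.108), nor without library 3 with both (0.91, adjusted p = 0.649). Csf2 was called without library 1 with both (1.60, adjusted p = 0.0285), without library 2 with both (1.62, adjusted p = 0.0775), with no count filter (adjusted p = 0.0382) and with the replicate block (adjusted p = 0.098). In this condition WT libraries held 303 reads of Csf2 and labelled TLR4-/- libraries 35, a ratio of 9.80 with a 95% counting interval of 6.90 to 14.3. These WT libraries are among those through which Csf2 passed the filter, so this ratio is a description only. Csf2rb was at 2319.8, 2519 and 3776 normalised counts with both and at 1970.2, 1882 and 2738 with rmTGF-β1, where library 3 was the highest of each group. Its log2 fold change of 0.38 ± 0.13 (SE, edgeR adjusted p = 0.146) became 0.13 (adjusted p = 0.772) without library 3 with both. Csf2rb was called without library 3 with rmTGF-β1 (0.57, adjusted p = 0.016) and without library 1 or 2 with both (adjusted p = 0.0171 and 0.0951). DESeq2 (adjusted p = 0.0744), the replicate block (0.0773) and no count filter (5.36e-10) also called it. Csf2rb2 was not called, nor without library 3 with both (0.09, adjusted p = 0.824). It was called with no count filter (0.00155), the replicate block (0.08), without library 1 with both (0.0558) and without library 3 with rmTGF-β1 (0.0412). The libraries of 3 of the 9 genes (Csf1, Csf2 and Csf3r) did not overlap, against 13% of all genes tested.

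With PBS alone, the genotype labels differed in 7 of the 9 genes by edgeR's test, where 47.1% of all genes tested were called, 23.2% higher and 24% lower, and the same number did not overlap, against 51.7%. All 5 receptor chains were higher in the libraries labelled TLR4-/-. Csf1r was at 13503, 14207 and 14237 normalised counts, against 2779 to 3175 in WT libraries, a log2 difference of 2.20 ± 0.07 (SE, edgeR adjusted p = 1.06e-16). Csf3r was higher by 2.50 ± 0.19, Csf2rb2 by 2.12 ± 0.11, Csf2rb by 1.71 ± 0.15 and Csf2ra by 1.41 ± 0.09 on the log2 scale (SE, edgeR adjusted p = 3.54e-10, 1.89e-13, 2.11e-09 and 7.08e-12). The labelled TLR4-/- libraries of each chain were all above the WT libraries. All 16 macrophage markers were higher as well, with a median log2 difference of 2.08, and their part in the receptor result was not tested.

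Set against the markers, the receptors of PBS libraries were much closer between genotype labels. Csf1r was 29.4 to 30.9 per 1000 marker counts in WT libraries and 34.7 to 37.7 in those labelled TLR4-/-. Csf2rb was 5.76 to 5.91 and 4.91 to 5.08, and Csf2rb2 was 4.12 to 4.38 and 4.66 to 4.98. Csf2ra was 8.04 to 8.71 and 5.46 to 6.23 per 1000 marker counts, the reverse of its order in normalised counts. Csf3r was 0.214 to 0.284 and 0.367 to 0.372, and the libraries of the labels did not overlap for any of the 5 chains on this scale. That depended on Lyz2, the most abundant marker. Per 1000 counts of the other 15 markers, a scale added after seeing the data, Csf1r was 135 to 142 in WT libraries and 133 to 145 in those labelled TLR4-/-, and Csf2rb2 was 19.1 to 20.1 and 17.8 to 19.2, so both overlapped. Csf2ra was 37.0 to 40.3 and 21.1 to 23.9, Csf2rb 26.7 to 26.8 and 18.6 to 19.5, and Csf3r 0.971 to 1.32 and 1.36 to 1.43, without overlap.

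**Figure D4:**
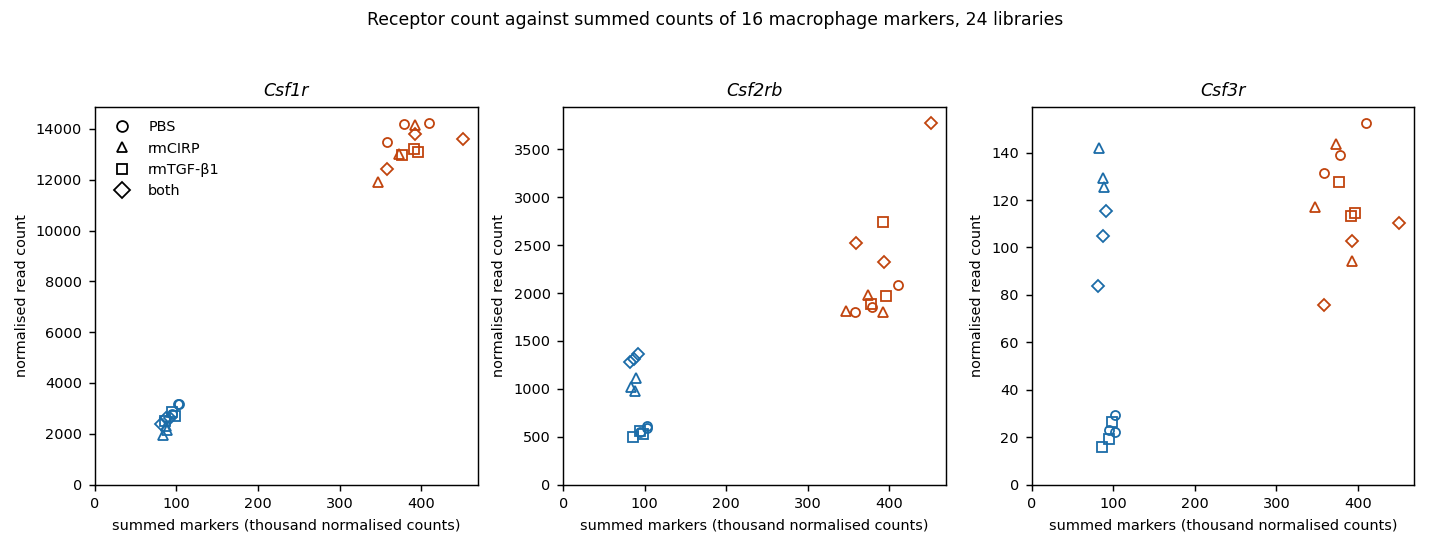
Normalised read counts of Csf1r, Csf2rb and Csf3r (vertical axes, linear from 0) against the summed normalised counts of 16 macrophage markers (horizontal axes, in units of 1000 counts) in 24 libraries, with WT in blue, labelled TLR4-/- in orange and treatment by symbol. The WT libraries with rmCIRP lie above the other WT libraries for Csf2rb (977 and more against 607 and less) and Csf3r (83.6 and more against 29.1 and less), and for Csf1r the libraries separate by genotype label.

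The ligands showed no such pattern between genotype labels with PBS. Csf1 differed by 0.02 ± 0.07 on the log2 scale (SE), with an approximate 95% interval of -0.11 to 0.16, and Il34 by -0.38 ± 0.21 (SE, edgeR adjusted p = 0.165). Csf3 was lower in the libraries labelled TLR4-/- by 0.81 on the log2 scale, a difference of -0.81 ± 0.17 (SE, edgeR adjusted p = 0.000544), and its libraries did not overlap. Csf2 had 1 read in the 3 labelled TLR4-/- libraries and 10 in the WT libraries, a ratio of 0.101 with a 95% counting interval of 0.00234 to 0.713 (edgeR adjusted p = 0.0192).

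The split of reads between the beta chain copies differed by treatment and genotype label. Csf2rb2 made up 41.7% to 42.9% of the reads of the pair in WT PBS libraries and 40.6% to 43.8% with rmTGF-β1. With rmCIRP the share was 32.9% to 34.7%, and with both proteins 33.6% to 35.4%. Thus all 6 WT libraries with rmCIRP lay below all 6 without it. In the labelled TLR4-/- libraries the share was 48.7% to 49.5% with PBS, 48.5% to 50.5% with rmCIRP, 45.9% to 50.1% with rmTGF-β1 and 43.3% to 48.5% with both. These were above all WT libraries, except that the lowest library with both proteins lay within the range of WT rmTGF-β1 libraries. Reads that fit both copies enter these shares in a way that depends on the counting, which was not tested.

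Compared as RPKM, reads per kilobase of exon scaled to library size, the order of the family changed with rmCIRP. In WT PBS libraries Csf1 stood at 588 ± 17.6 RPKM (SD, n = 3), followed by Csf1r (15.8 ± 1.13), Csf2ra (8.73 ± 0.710), Csf2rb2 (2.69 ± 0.06001), Csf2rb (2.41 ± 0.113), Csf3 (1.69 ± 0.167), Il34 (0.576 ± 0.0685), Csf3r (0.206 ± 0.0330) and Csf2 (0.124 ± 0.0396). The libraries of neighbours in this order did not overlap. With rmCIRP, Csf3 moved to the second place at 22.6 ± 1.19, above Csf1r at 10.7 ± 0.748, and Csf2 to the fifth at 5.66 ± 0.385 (SD, n = 3). Csf1 remained at the head of the order at 612 ± 17.8. In labelled TLR4-/- PBS libraries Csf1 stood at 602 ± 29.4, Csf1r at 73.2 ± 2.59 and Csf2 last at 0.0127 ± 0.0220 (SD, n = 3). Exon lengths came from GENCODE M21, which may differ from the annotation the reads were counted on.

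The genes whose log2 levels over the 24 libraries were most like each member were ranked by Pearson's r among 12304 genes, as a description in which the libraries share conditions and genotype label. Nearest to Csf3 were Nlgn2 (r = 0.986), Tor1aip2 (0.983) and Stip1 (0.983), and nearest to Csf2 were Cacybp (0.972), Nfkbib (0.968) and Mmp10 (0.965). Nearest to Csf1r were Stab1 (0.998), C1qb (0.997) and Cfp (0.997), and nearest to Csf2ra were Sh3bp2 (0.994), Ms4a7 (0.993) and Ncf1 (0.993). Csf2rb was followed by Pla2g7 (0.987), Csf2rb2 by Stk10 (0.992), Csf3r by Gm8995 (0.976) and Il34 by Nmnat2 (0.909). For Csf1 the highest was Plscr3 at 0.788. Between members, Csf2 and Csf3 had r = 0.921 and Csf2 and Csf1r had r = -0.599.

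Of 10 other ligands and receptors of the same classes, 6 passed the count filter, and with rmCIRP in WT libraries 1 of them rose and 1 fell. Both are known as alternative binding partners of IL-34: the proteoglycan gene Sdc1 rose by 0.52 ± 0.18 and the phosphatase gene Ptprz1 fell by 0.80 ± 0.20 on the log2 scale (SE, edgeR adjusted p = 0.0272 and 0.0027). With rmTGF-β1 in WT libraries, Kitl, which encodes stem cell factor, fell by 0.46 ± 0.12 on the log2 scale (SE, edgeR adjusted p = 0.0211). In labelled TLR4-/- libraries Kitl fell by 0.76 ± 0.12 with rmTGF-β1 (SE, edgeR adjusted p = 0.000141).

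Genes that act below the receptors were counted in the same way. Of 27 such genes, 12 rose and 11 fell with rmCIRP in WT libraries, where 19.8% of all genes tested were higher and 24.1% lower, with a median log2 fold change of 0.12 against -0.02 over all genes tested. Socs1 and Socs3, which encode inhibitors of cytokine receptor signalling, rose by 1.68 ± 0.14 and 1.57 ± 0.12 on the log2 scale (SE, edgeR adjusted p = 2.57e-09 and 5.6e-10). Inpp5d, the lipid phosphatase SHIP1 of blood cells, fell by 1.43 ± 0.10 on the log2 scale (SE, edgeR adjusted p = 5.69e-11). In the labelled TLR4-/- libraries with rmCIRP, 0 of the 27 were called, as were 0% of all genes tested. With PBS, 15 of the 27 were higher and 4 lower under the TLR4-/- label than in WT libraries, where 23.2% of all genes tested were higher and 24% lower. The largest differences were those of Inpp5d (2.41 ± 0.07) and Spi1, which encodes the myeloid transcription factor PU.1 (2.29 ± 0.08), and the opposite direction was taken by Jak2 (-0.53 ± 0.05) and Cish (-0.48 ± 0.11, SE).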

How the data were processed

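Per the paper's methods, the authors prepared stranded total RNA libraries, used STAR2 and a mouse GENCODE reference for alignment, and counted reads per gene with ht-seq. The submitters' processing notes name the build NCBIM37. The release of the annotation and the strand and multi-mapping options are not given in the sources used here. The deposited values are raw read counts per gene symbol, 1 file per library, with 5 tally lines (14.5% to 16.1% of each file's total) that were left out.

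Libraries were grouped by their labels, and none was left out. The tests used edgeR 4.0.16 (R 4.3.3). After filterByExpr and TMM scaling, glmQLFit fitted all 24 libraries together with 8 condition means, and glmQLFTest tested the contrasts. P-values were adjusted by Benjamini-Hochberg over all genes tested, with a threshold of 0.1. Standard errors were taken from the F statistic, and the intervals of fold changes use 16 residual degrees of freedom and are approximate. Normalised counts use DESeq2 1.42.0 size factors. An exact two-sided permutation test of 3 against 3 libraries cannot give a p below 0.1, so groups that do not overlap are described without it. Counting intervals are exact binomial at 95%. The fit was tested on simulated data with 200 changed genes.

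All 9 members are named. From the other lists, up to 2 genes with the largest rise and up to 2 with the largest fall past the threshold are named per comparison, with a mean of at least 50 normalised counts, and for each member the 5 genes with the highest correlation were listed, of which the text gives the leading ones. The value of 1 listed gene is not reported here. The members and lists were chosen with earlier results of these data known. Alternatives were DESeq2, RLE scaling, no count filter, a mean count of at least 10, the replicate number as a block, only the libraries compared, and leaving out each library. After seeing the data, TMM scaling of the levels was added for the overlap of libraries, and the marker sum without Lyz2 for the receptors set against it. Sequences were read from GENCODE M21 transcripts (GRCm38) and aligned with Biopython 1.88. For each gene the transcript with the longest coding sequence was used. Coordinates are on GRCm38 and were not carried to the build of the counts.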

Additional observations from a re-analysis of the deposited data

Results flagged for a closer look

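The response to rmCIRP differed between genotype labels for 4 of the 9 genes by a test of the difference itself (labelled TLR4-/- minus WT, by edgeR, adjusted p under 0.1). Of all genes tested, 31.4% were called in the same test, 17.1% higher and 14.3% lower. The differences were -4.13 for Csf3, -2.66 for Csf3r, -0.86 for Csf2rb and 0.42 for Csf1r on the log2 scale. In WT libraries Csf3, Csf3r and Csf2rb were higher with rmCIRP in 3 of 3 libraries and Csf1r was lower in 3 of 3. The genotype labels also differed in Xist and in the macrophage markers, and the part of these in the differences was not tested.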

How the results depend on the processing

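Counts of called members changed by over 1.5 times in 5 of 11 comparisons. For rmTGF-β1 against PBS in WT libraries the count was 0, against 2 with no count filter, 1 with a mean count of at least 10, 2 with DESeq2 and 2 when only the compared libraries were fitted. For rmTGF-β1 against PBS in labelled TLR4-/- libraries it was 2, against 1 when only the compared libraries were fitted. In that fit Csf2 was not tested, since without the WT libraries with rmCIRP it does not pass the count filter. For both proteins against rmTGF-β1 under that label it was 1, against 4 with no filter, 2 with DESeq2 and 0 when only the compared libraries were fitted. For the genotype difference in the rmTGF-β1 response it was 0, against 2 with no filter, and for the WT interaction 0, against 3 with no filter, 1 with DESeq2 and 3 when only the compared libraries were fitted. Leaving out 1 library at a time gave 0 to 2 members for rmTGF-β1 in WT libraries, 1 to 3 for it under the TLR4-/- label and 0 to 4 for both proteins against rmTGF-β1 under that label. Over all genes with an adjusted p, DESeq2 called 1936 of 14344 for rmTGF-β1 in WT libraries and 37 of 12350 for the WT interaction. For both proteins against rmTGF-β1 under the TLR4-/- label it called 902 of 10356. For the settings other than DESeq2, the share of all genes called is not given, so those member counts describe the processing only. Apart from the Csf2 case named above, the causes of the changed member counts were not tested.

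The replicate numbers carry no meaning in the labels, and deviations of same-numbered libraries correlated at 0.012 on average over 84 pairs, so they were not taken as pairs. For both proteins against rmTGF-β1 under the TLR4-/- label the mean was 0.205 (0.064 to 0.369), with 2 of 3 pairs over 0.1. With the replicate block, 2 members were called for rmTGF-β1 against PBS in WT libraries, 4 for both proteins against rmTGF-β1 under the TLR4-/- label and 1 for the WT interaction, and the other 8 counts stayed within 1.5 times. The share of all genes called with the block is not given, so these counts cannot be set against it.

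Small differences that were not called changed sign: Csf1 for both proteins against rmTGF-β1 in WT libraries (0.0051 with a mean count of at least 10) and Csf3r in the genotype difference for rmTGF-β1 (-0.0022 with RLE scaling, -0.031 with no filter, -0.0053 with a mean count of at least 10). Without 1 library at a time, the ranges that crossed 0 were, for Csf1, -0.073 to 0.041 (genotype difference for rmCIRP), -0.0074 to 0.087 (genotype difference for rmTGF-β1), -0.027 to 0.066 (labels with PBS) and -0.052 to 0.021 (WT, both against rmTGF-β1). For Csf2ra they were -0.096 to 0.021 (WT rmTGF-β1), -0.101 to 0.0067 (WT, both against rmCIRP), -0.075 to 0.042 (WT interaction), and under the TLR4-/- label -0.097 to 0.078 (rmCIRP) and -0.063 to 0.042 (both against rmTGF-β1). Under that label they were -0.083 to 0.025 for Csf2rb and -0.071 to 0.051 for Csf2rb2 (rmCIRP), -0.013 to 0.059 for Csf1r and -0.144 to 0.152 for Csf3 (both against rmTGF-β1), and -0.295 to 0.00092 for Csf3 and -0.021 to 0.443 for Il34 (rmTGF-β1). The rest were -0.038 to 0.272 for Csf3 and -0.135 to 0.252 for Csf3r (genotype difference for rmTGF-β1), -0.279 to 0.107 for Csf3r (WT interaction) and -0.012 to 0.155 for Il34 (WT, both against rmCIRP). On TMM scaling 8 rather than 9 members had no overlap for rmCIRP against PBS in WT libraries.

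Csf2 outside the WT libraries with rmCIRP rests on 0 to 18 reads per library, and Il34 on 22 to 59, which limits their differences. Sex, macrophage RNA and genotype label cannot be told apart.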
